A study of Homo sapiens with 37 samples.

Results

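Cells take up, store and export iron through a small set of proteins, and 10 genes of this set were examined in the erythroleukemia cell line K562 with and without disruption of ZBTB7A. The genes were chosen by symbol: TFRC, STEAP3, SLC11A2 and SLC11A1 for uptake, SLC25A37 for delivery to mitochondria, FTH1 and FTL for storage, SLC40A1 for export, IREB2 for regulation and HMOX1 for release of iron from heme. All 10 were among the 32055 genes of the deposited count table, and 9 of them held enough counts to be tested.

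Transferrin-bound iron enters a red cell precursor through the transferrin receptor, is reduced in the endosome and crosses into the cytosol through a divalent metal transporter. From there it is passed to mitochondria for heme synthesis, stored in ferritin or exported by ferroportin. Iron regulatory proteins bind a short hairpin in the transcripts, the iron responsive element (IRE), when iron is scarce. Bound at the 5′ end of a transcript they block its translation, and bound at the 3′ end they protect the transcript from decay, so the RNA level of ferritin or ferroportin need not follow the protein level.

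ZBTB7A encodes a transcription factor with roles in erythroid and myeloid differentiation, and the study asked which genes change when it is lost. The 26 libraries labelled KO came from K562 cells electroporated with the Cas9 plasmid px458 carrying 1 of 2 gRNAs against ZBTB7A, and the 11 libraries labelled Control from cells given the same plasmid without a gRNA. No other treatment is named. Cells were sorted singly and expanded, so a library may stand for 1 clone, but the labels give no clone, gRNA or replicate number. The p-values therefore measure the spread between these libraries, which may share clones or be technical repeats.

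RNA was measured by a bulk form of SCRB-seq, in which reverse transcription starts at the poly(A) tail and each captured molecule carries a unique molecular identifier (UMI), so that counts are molecules read at the 3′ end. A library held 1070250 to 4270901 UMIs in the KO group and 563235 to 4710809 in the control group. Values per library are given as log2 CPM, log2 of the counts scaled to a common library size (CPM, 1e6 counts) after TMM, with a prior count of 2. Barcodes were unevenly spread, with 12 KO libraries and 1 control library carrying a GC-rich barcode and 12 KO and 8 control libraries an AT-rich one. The groups were therefore also compared among AT-rich barcodes alone. The KO library GGCCAC had values near those of the controls for several genes. ZBTB7A itself lay at 5.44 to 6.41 log2 CPM in KO and 5.27 to 6.19 in control libraries (log2 fold change 0.12, SE 0.09, adjusted p = 0.331 by edgeR), and as the count is taken at the 3′ end it does not check the edit. Among 7 erythroid markers, which included HBG1, HBG2, HBZ, GATA1, TAL1 and KLF1, none was at 0 in every library of a group. Their summed level ran from 2420 to 8860 CPM in KO and from 3300 to 7980 CPM in control libraries. The median of the sum was 4910 CPM in KO and 6310 CPM in control libraries, a difference that was not tested. By edgeR, GATA1 (-0.19, adjusted p = 0.0303) and KLF1 (-0.22, adjusted p = 0.039) were lower and TAL1 (0.39, adjusted p = 0.0258) higher in KO libraries on the log2 scale, and their part in the differences of the iron genes was not tested. The sum of 6 macrophage and myeloid markers ran from 4.1 to 17.3 CPM in KO and from 3.49 to 9.82 CPM in control libraries, with CD163 at 0 in every control. One of the 6, ITGAM, was tested and rose by 1.23 on the log2 scale (adjusted p = 0.00248 by edgeR). In bulk RNA, fewer cells of a type and less RNA per cell cannot be told apart.

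The elements through which iron acts on these transcripts are shown because they group the genes in which they were found by mode of regulation. They were found in GENCODE 44 transcripts on GRCh38 as an unpaired C, 5 bases, the loop CAGTGN and 5 bases able to pair with the first 5, G with U included, on the transcribed strand. The capitals mark the 6-base loop. FTH1, FTL and SLC40A1 held 1 element each in the 5′ UTR, and TFRC held 4 in the 3′ UTR. They lie at chr11:61967574-61967602 (minus strand) in FTH1, chr19:48965335-48965363 (plus strand) in FTL and chr2:189580661-189580689 (minus strand) in SLC40A1. Those of TFRC lie on the minus strand at chr3:196050979-196051007, chr3:196050575-196050603, chr3:196050510-196050538 and chr3:196050463-196050491.
FTH1 5′ element: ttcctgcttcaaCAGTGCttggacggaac
FTL 5′ element: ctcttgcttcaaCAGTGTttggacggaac
SLC40A1 5′ element: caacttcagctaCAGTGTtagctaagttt
TFRC 3′ element 1: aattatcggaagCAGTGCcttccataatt
TFRC 3′ element 2: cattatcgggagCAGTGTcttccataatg
TFRC 3′ element 3: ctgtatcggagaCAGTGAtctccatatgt
TFRC 3′ element 4: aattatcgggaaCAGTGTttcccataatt

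Such a match is rare. It was present in 19 of 19224 annotated 5′ UTRs (0.0988%) and 121 of 19606 3′ UTRs (0.617%). Among UTRs of like length the share was 0.135% for FTH1, 0.199% for FTL, 0.178% for SLC40A1 and 0.509% for the 3′ UTR of TFRC. Each of these sets includes the gene itself, and those of FTH1 and FTL include each other. For FTH1 the matches were 2 of 1479 UTRs, those of FTH1 and FTL. The searched letters were not in the annotated main UTRs of the other 6 genes, SLC11A2 among them. The search allowed only the loop and pairing given above, so an element of another shape would be missed. Its result therefore does not show that these 6 genes lack an IRE, or that TFRC, FTH1, FTL and SLC40A1 hold no further one.

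Of the 9 genes tested, 5 differed between KO and control libraries at an adjusted p below 0.05: TFRC, STEAP3, SLC11A1 and SLC40A1 fell and SLC11A2 rose. Over all 10661 tested genes 33.8% passed the same threshold, against 55.6% of these 9. The 9 are too few to set their share apart from that of all genes. They were also chosen with earlier results of these data known, so the shares are given as description only. With an absolute log2 fold change above 0.5 required as well, SLC11A1 and SLC40A1 were called, both lower, against 10.2% of all tested genes called, 3.53% lower and 6.65% higher. The median log2 fold change was -0.18 over the 9 genes and -0.00462 over all tested genes. These tests are edgeR quasi-likelihood tests with Benjamini-Hochberg adjustment over all tested genes, as are the adjusted p-values that follow unless another method is named.

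**Figure D1:**
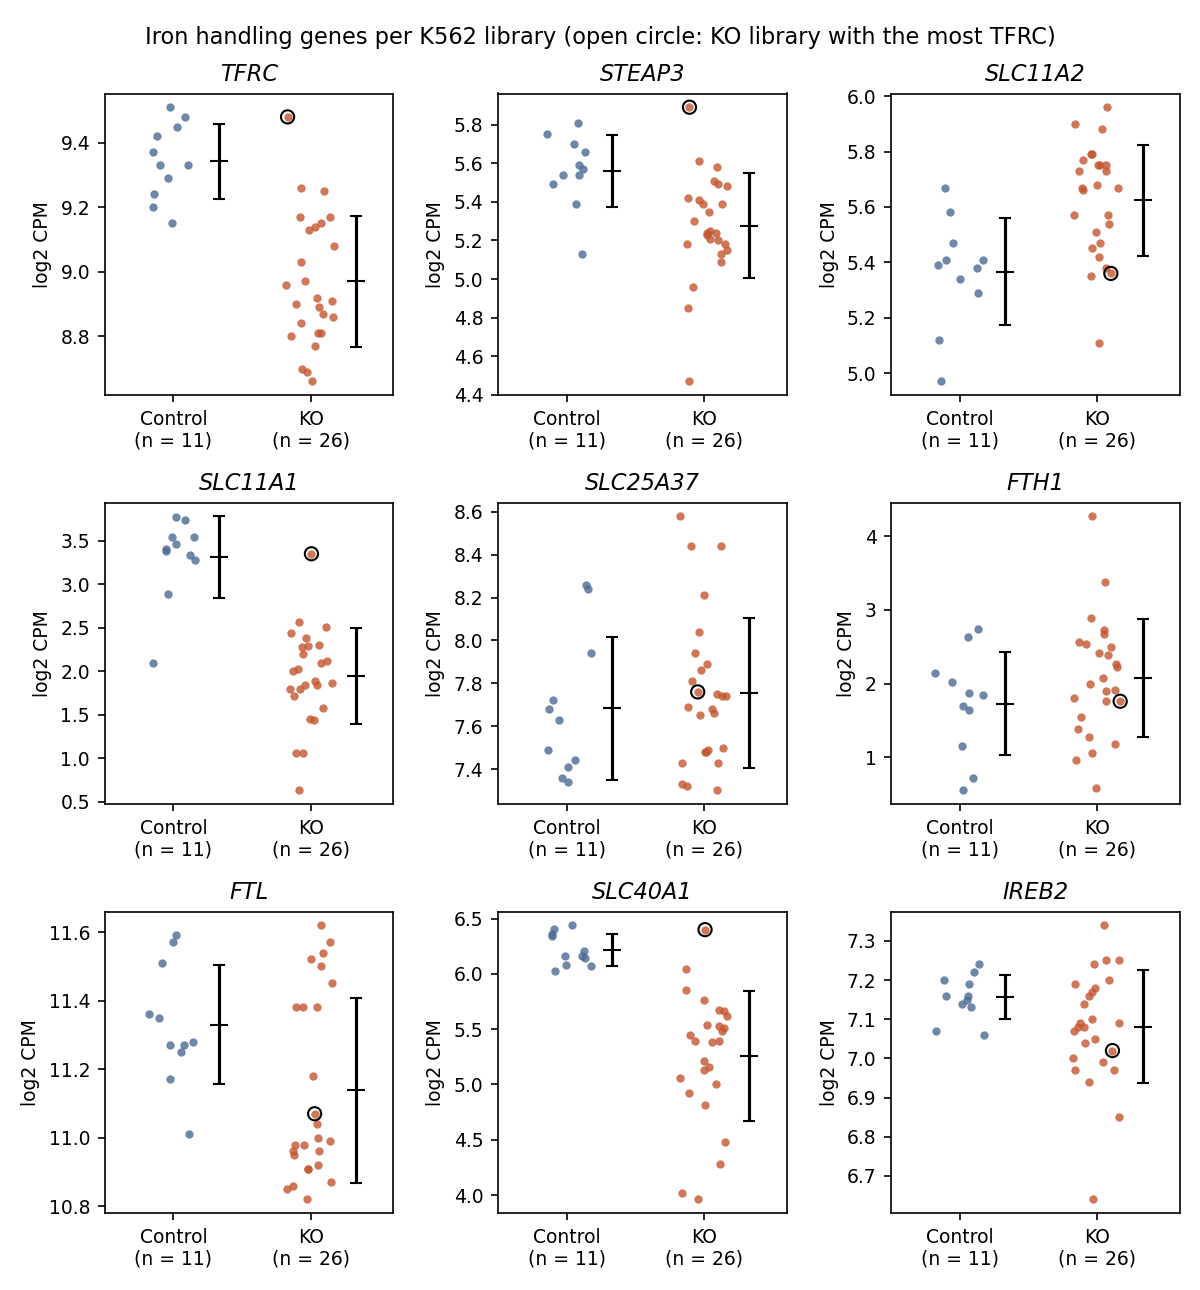
Level of 9 iron handling genes in log2 CPM (vertical axis, a separate scale per panel) in each control (n = 11) and KO (n = 26) library, with mean and SD as the black bar beside the points. KO points of SLC11A1 and SLC40A1 lie mostly under the controls. The circled KO library, the highest for TFRC at 9.48, lies within the control range in both of those panels.

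TFRC (ENSG00000072274, chr3:196012511-196082153, minus strand) encodes the transferrin receptor, the main entry of iron into erythroid cells. It was a strongly expressed gene, with 52669 UMIs in all and rank 245 among all genes. Control libraries held 9.15 to 9.51 log2 CPM with a median of 9.33, and KO libraries 8.66 to 9.48 with a median of 8.91. In 20 of 26 KO libraries TFRC lay under the lowest control, and the highest KO value belonged to the library GGCCAC. TFRC fell by 0.37 on the log2 scale (SE 0.06, 95% confidence interval -0.49 to -0.24, adjusted p = 1.51e-05), or 1.29-fold lower in KO libraries. Among AT-rich barcodes the log2 fold change was -0.41 (adjusted p = 7.37e-05), close to the value over all libraries.

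STEAP3 (ENSG00000115107, chr2:119223831-119265652, plus strand) encodes the endosomal reductase that turns ferric into ferrous iron. It lay between 5.13 and 5.81 log2 CPM in control libraries, with a median of 5.57, and between 4.47 and 5.89 in KO libraries, with a median of 5.25. The groups overlapped widely: 4 KO libraries were under the lowest control and 1, again GGCCAC, was above the highest. STEAP3 fell by 0.29 on the log2 scale (SE 0.08, adjusted p = 0.00479). When all libraries were thinned to the depth of the shallowest, the log2 fold change of STEAP3 was -0.24 and its adjusted p 0.171, which missed the threshold.

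The 2 divalent metal transporters of the set moved in opposite directions. SLC11A2 (ENSG00000110911, chr12:50979401-51028566, minus strand) encodes DMT1, which carries ferrous iron out of the endosome. Its level was 4.97 to 5.67 log2 CPM in control libraries, median 5.39, and 5.11 to 5.96 in KO libraries, median 5.67. In 13 of 26 KO libraries SLC11A2 exceeded the highest control and in none did it lie under the lowest. SLC11A2 rose by 0.24 on the log2 scale (SE 0.07, 95% confidence interval 0.10 to 0.38, adjusted p = 0.00609), and by 0.29 among AT-rich barcodes (adjusted p = 0.0247).

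SLC11A1 (ENSG00000018280, chr2:218382029-218396894, plus strand) encodes NRAMP1, the related transporter of phagosomes, known from macrophages. It was scarce in K562, with 6 to 57 UMIs per control library (median 31) and 2 to 18 per KO library (median 6). On the log2 CPM scale controls ranged from 2.09 to 3.77 with a median of 3.41 and KO libraries from 0.63 to 3.35 with a median of 1.94. The fall was the widest among the 9 tested genes: SLC11A1 decreased by 1.52 on the log2 scale (SE 0.18, 95% confidence interval -1.89 to -1.15, adjusted p = 1.83e-08), or 2.88-fold lower. In 16 KO libraries it lay under the lowest control. That control, CGGTGG, is the only one with a GC-rich barcode. At 2.09 it lay inside the range of the KO libraries with such a barcode, 0.63 to 3.35. The KO median was 1.86 with GC-rich and 1.93 with AT-rich barcodes. Leaving CGGTGG out, a step added after seeing the data, put the lowest control at 2.89 and 25 of 26 KO libraries below it. The exception was GGCCAC. Among AT-rich barcodes the log2 fold change was -1.60 (adjusted p = 1.26e-06). The macrophage and myeloid markers did not share one direction beside SLC11A1. ITGAM rose, while from control to KO the mean log2 CPM was 0.57 and 0.21 for LYZ, 1.27 and 1.19 for CSF1R, 1.31 and 1.29 for SPI1, -0.17 and -0.21 for CD14 and -0.35 and -0.32 for CD163, none of which held enough counts to be tested. Their part in the result was not tested.

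SLC25A37 (ENSG00000147454, chromosome 8, plus strand) encodes mitoferrin-1, which brings iron into the mitochondria of erythroid cells. Controls spanned 7.34 to 8.26 log2 CPM with a median of 7.63, and KO libraries 7.30 to 8.58 with a median of 7.72. The ranges nearly coincided, with 3 KO libraries above and 3 below all controls. The log2 fold change was 0.07 (SE 0.13, 95% confidence interval -0.18 to 0.32, adjusted p = 0.706), and its sign turned among AT-rich barcodes (-0.14, adjusted p = 0.399).

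**Figure D2:**
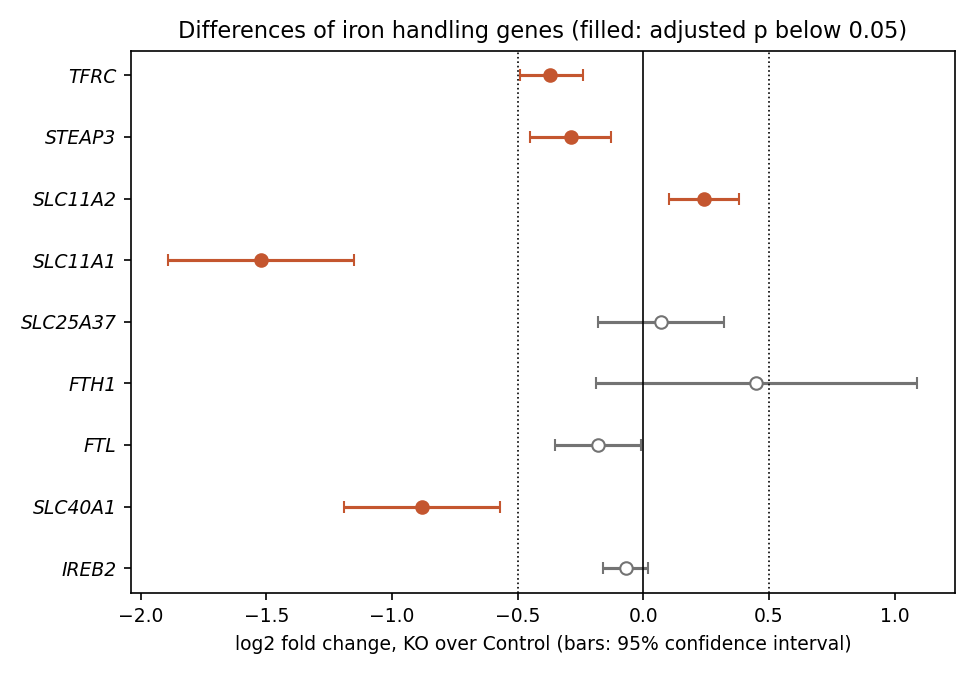
Log2 fold change of each tested gene, KO over Control (horizontal axis), with its 95% confidence interval from 26 KO and 11 control libraries. Filled points passed an adjusted p of 0.05 and the dotted lines mark the limit of 0.5 in either direction. SLC11A1 at -1.52 and SLC40A1 at -0.88 lie beyond it.

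Ferritin is a shell built of heavy and light chains. FTL (ENSG00000087086, chr19:48965309-48966879, plus strand), the light chain, was the most abundant gene of the set, with 226745 UMIs and rank 26 among all genes. Control libraries held 11.01 to 11.59 log2 CPM and KO libraries 10.82 to 11.62, with medians of 2490 and 2040 CPM. In the KO group 17 libraries lay at 10.82 to 11.18 and 9 at 11.38 to 11.62, a gap of 0.20 that is no wider than the widest KO gap of TFRC (0.22), and 14 KO libraries were under the lowest control. Over all libraries the log2 fold change of FTL was -0.18 (SE 0.09, 95% confidence interval -0.35 to -0.01, adjusted p = 0.104), which missed the threshold. It passed among AT-rich barcodes (-0.32, adjusted p = 0.00381), where the KO median was 10.97 and the control median 11.32, and in limma-voom over all libraries (-0.20, adjusted p = 0.0425).

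FTH1 (ENSG00000167996, chr11:61959718-61967634, minus strand), the heavy chain, which holds the ferroxidase site, had only 304 UMIs in all, 2 to 20 per KO and 2 to 15 per control library. This count is uncertain as a measure of the gene. The 16 rows of FTH1 pseudogenes in the table held 2362 UMIs, or 88.6% of the sum with FTH1, whereas 13 FTL pseudogenes held 1.6% of the sum with FTL. All 500 of the last 500 exonic bases of FTH1 also overlap annotated exons of BEST1 on the opposite strand. Whether the counting used strand is not given in the sources used here, and the effect of either overlap on the count was not tested. As listed, FTH1 ranged from 0.55 to 2.74 log2 CPM in controls and from 0.58 to 4.27 in KO libraries, with a log2 fold change of 0.45 (SE 0.32, adjusted p = 0.288). Among AT-rich barcodes the log2 fold change was 0.17 (adjusted p = 0.795), and with barcode class as a covariate 0.20 (adjusted p = 0.699). With the pseudogene counts added, over all libraries, the log2 fold change was 0.36 and passed the threshold (adjusted p = 0.0365). That fit was not repeated by barcode class.

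Because both counts come from one library, the ratio of storage to uptake transcripts does not depend on scaling. FTL gave 3.12 to 5.21 UMIs per TFRC UMI in control libraries, median 4.06, and 3.01 to 6.45 in KO libraries, median 4.49. In 10 KO libraries this ratio was above the highest control and in 2 below the lowest. TFRC over the sum of FTH1 and FTL was 0.192 to 0.320 in controls and 0.155 to 0.332 in KO libraries, with medians of 0.246 and 0.222. The ratio of FTH1 to FTL had a median of 0.000985 in controls and 0.00148 in KO libraries, both subject to the doubt on the FTH1 count. These ratios are described without a test.

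SLC40A1 (ENSG00000138449, chr2:189560590-189583758, minus strand) encodes ferroportin, the iron exporter of the cell membrane. Raw counts were 37 to 385 UMIs per control library (median 242) and 20 to 198 per KO library (median 70). On the log2 CPM scale the controls lay close together at 6.03 to 6.44 with a median of 6.16, and the KO libraries spread from 3.96 to 6.40 with a median of 5.39. The SD was 0.15 in controls and 0.58 in KO libraries. In 24 of 26 KO libraries SLC40A1 was under the lowest control, the exceptions being GGCCAC at 6.40 and 1 library at 6.04. SLC40A1 fell by 0.88 on the log2 scale (SE 0.15, 95% confidence interval -1.19 to -0.57, adjusted p = 2.81e-05), or 1.84-fold lower in KO libraries, and by 0.89 among AT-rich barcodes (adjusted p = 0.000356). Without GGCCAC its log2 fold change was -0.94.

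IREB2 (ENSG00000136381, chr15:78437431-78501453, plus strand) encodes iron regulatory protein 2, which binds the elements printed above. Its RNA was steady in controls, 7.06 to 7.24 log2 CPM with a median of 7.16, and ranged from 6.64 to 7.34 in KO libraries with a median of 7.09. The log2 fold change was -0.07 (SE 0.05, 95% confidence interval -0.16 to 0.02, adjusted p = 0.263). After thinning to equal depth IREB2 had a log2 fold change of -0.19 and passed the threshold (adjusted p = 0.0382).

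HMOX1 (ENSG00000100292, chr22:35380361-35394214, plus strand) encodes heme oxygenase 1, the inducible enzyme that frees iron from heme. It was all but undetected, with 0 UMIs in the 26 KO libraries and 1 UMI in 1 of the 11 control libraries. A count of 0 among 60550711 KO UMIs allows up to 0.0495 CPM at 3 counts, a limit that covers counting error only. The control group held 35152487 UMIs in all, and no difference was detectable at this depth.

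The genes were then set against each other from library to library, 36 pairs within each group, with Pearson's r and Spearman's rho, two-sided permutation tests of 100000 resamples and adjustment over the 36 pairs. Among KO libraries TFRC and SLC25A37 rose together, with rho = 0.69 (permutation p = 0.00019, adjusted 0.00684) and r = 0.52 (permutation p = 0.00622, adjusted 0.0566). Without the 2 libraries farthest from the median of TFRC r was 0.62, and it was 0.63 among the 12 AT-rich and 0.45 among the 12 GC-rich barcodes. In controls the same pair gave r = 0.39 and rho = 0.28 (permutation p = 0.235 and 0.404, n = 11), and the difference between the groups was not tested.

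FTL and SLC40A1 were the other pair past the threshold in the KO group, by Pearson's r alone (adjusted permutation p = 0.0238, against 0.127 for rho). Over all 26 KO libraries, those with more FTL had less SLC40A1, with r = -0.62 (permutation p = 0.00066) and rho = -0.52 (permutation p = 0.00708). The median of SLC40A1 was 5.53 in the 17 libraries below the FTL gap described above and 4.81 in the 9 above it. Within each of these sets r was positive, 0.28 below the gap and 0.52 above it. The sets were cut on FTL itself after seeing the data. FTL spans only 10.82 to 11.18 in the first and 11.38 to 11.62 in the second. These r, which were not tested, therefore cannot show how the pair varies inside the sets. Without the 2 libraries farthest from the median of FTL r was -0.67, and it was -0.80 among AT-rich and -0.62 among GC-rich barcodes. In controls the pair gave r = -0.09 and rho = -0.02 (permutation p = 0.787 and 0.968), and the difference between the groups was not tested. In the 11 control libraries no pair passed after adjustment. Of the 36 pairs, 3 had an unadjusted permutation p below 0.05 for r and 4 for rho in controls, and 7 and 8 in the KO group. As the same r gives a smaller p in 26 libraries than in 11, these counts do not compare the groups. The permutations also treat libraries as independent, which libraries of a shared clone would not be.

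**Figure D3:**
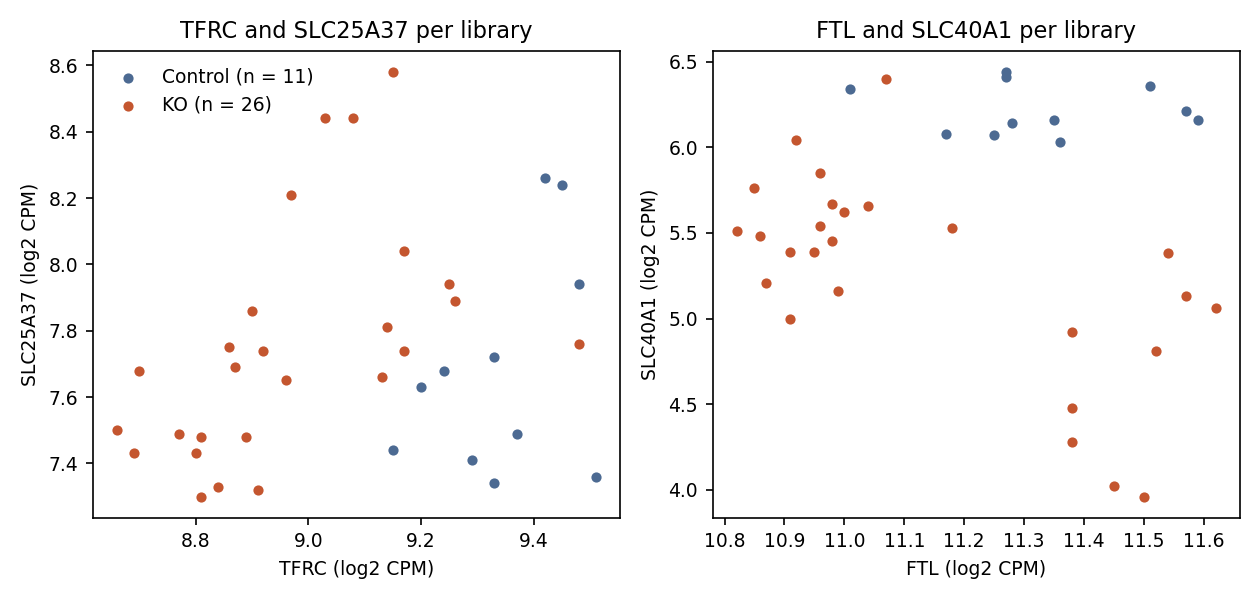
Pairs of iron handling genes in log2 CPM, each point a library (11 control, 26 KO). On the left KO libraries with more TFRC have more SLC25A37 (rho = 0.69). On the right, over all KO libraries, those with more FTL have less SLC40A1 (r = -0.62). Within the KO libraries at or below 11.18 in FTL r is 0.28, and within those at or above 11.38 it is 0.52.

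For each of the 5 genes that passed, the 2 genes with the most similar profile over the 26 KO libraries were taken from about 8604 tested genes whose mean level reached 10 CPM. SLC40A1 was closest to NCL (r = 0.88) and WDR75 (r = 0.86), SLC11A2 to OBSL1 and ASIC4 (both 0.83), and TFRC to PGGT1B (0.81) and DLK1 (0.79). STEAP3 was closest to RASSF1 (0.80) and SEPTIN8 (0.74), and the scarce SLC11A1 to CSTF2 (0.67) and THAP2 (0.62). These values describe likeness across libraries that share a scaling, and carry no test.

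Beyond the set, 57 of 70 further genes of iron biology were tested. Of these, 11 rose and 13 fell at an adjusted p below 0.05 (42.1%, against 33.8% of all tested genes), with a median log2 fold change of -0.02. Their lists too were chosen with earlier results of these data known, so the shares are description only. Of the 57, 6 were called higher and 2 lower, where 6.65% and 3.53% of all tested genes were. Changes of these genes are given as log2 fold changes. Among 8 tested genes of uptake, 3 rose and 2 fell (62.5%). TF, which encodes transferrin itself, rose by 0.95 (SE 0.25, adjusted p = 0.0031). TFR2, the second transferrin receptor and an iron sensor, fell by 0.81 (SE 0.16, adjusted p = 0.000143) and lay under the lowest control in 25 of 26 KO libraries. SLC39A8, a zinc and iron importer, rose by 0.57 (adjusted p = 0.000848), whereas the related importer SLC39A14 fell by 0.51 (adjusted p = 0.00739) and lay under the lowest control in 20 of 26 KO libraries. Both transferrin receptor transcripts were thus lower and transferrin and SLC11A2 higher in KO libraries.

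Of 3 tested genes around export and hepcidin 2 rose (66.7%, against 33.8% of all tested genes). The lists of this paragraph are too short to set their shares apart from that of all genes. HEPH, a ferroxidase that works with ferroportin, rose by 0.61 (adjusted p = 2.52e-05), opposite to SLC40A1. HJV, a coreceptor in hepcidin control, rose by 0.99 (adjusted p = 0.00874) from 0 to 15 UMIs per control and 3 to 35 per KO library. In storage and chaperoning 1 of 2 tested genes passed (50%): NCOA4, which carries ferritin to the lysosome for breakdown, rose by 0.25 (adjusted p = 0.000265). Of 4 genes that control the iron regulatory proteins 1 passed (25%, below the 33.8% of all tested genes). This was CUL1, a ubiquitin ligase subunit, which fell by 0.21 (adjusted p = 0.00113).

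Mitochondrial iron genes passed in 2 of 5 cases, both lower (40%, close to the 33.8% of all tested genes). ABCB8, a transporter of the mitochondrial inner membrane, fell by 0.38 on the log2 scale (adjusted p = 0.00098). Among 13 tested genes of iron-sulfur cluster assembly 1 rose and 5 fell (46.2%). CIAO1, of the cytosolic assembly machinery, fell by 0.32 (adjusted p = 8e-06), LYRM4 by 0.22 (adjusted p = 0.00189), and the mitochondrial GLRX5 rose by 0.32 (adjusted p = 0.00684). All passing genes of both lists differed by less than 0.5 on the log2 scale.

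Heme handling had 2 of 8 tested genes higher and none lower (25%, below the 33.8% of all tested genes). FLVCR1, a heme exporter, rose by 0.31 (adjusted p = 0.000103) and BACH1, a heme-sensing repressor of HMOX1, by 0.25 (adjusted p = 0.00839). Among 9 genes of the NRF2 pathway, to which HMOX1 also belongs, 1 rose and 1 fell (22.2%, again below that share), the latter being NFE2L2, which encodes NRF2, by 0.23 (adjusted p = 0.00377). Of 5 further transcripts known for an IRE, 1 rose and 2 fell (60.0%). ALAS2, the erythroid first enzyme of heme synthesis, rose by 1.41 (SE 0.39, adjusted p = 0.00577), while EPAS1, a hypoxia-inducible factor, fell by 0.39 (adjusted p = 0.0237).

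**Figure D4:**
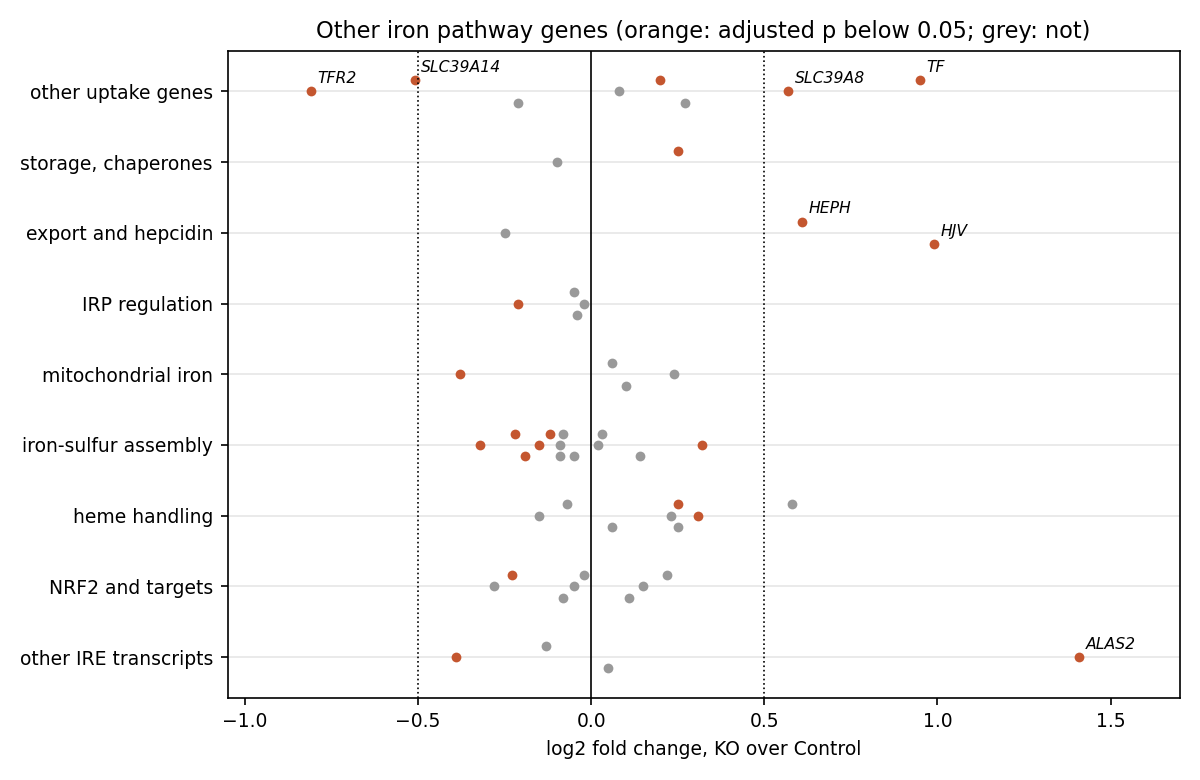
Log2 fold change, KO over Control, of tested genes in 9 further lists of iron biology (one line per list), without those not reported here. Orange points passed an adjusted p of 0.05, and those beyond the dotted lines at 0.5 are named. ALAS2 at 1.41 lies farthest to the right and TFR2 at -0.81 farthest to the left.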

How the data were processed

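RNA of K562 cells was measured in 37 libraries. The authors mapped reads to hg38 with STAR 2.6.0a (version per the submitters' processing notes) and obtained UMI counts with zUMIs on the Ensembl GRCh38.84 annotation. The version of zUMIs is not given in the sources used here. The deposited values are raw UMI counts, 563235 to 4710809 per library. GENCODE 44 gave symbols for 31323 of 32055 identifiers, and UTRs for the element search.

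KO and control counts were compared by edgeR 4.0.16 in R 4.3.3, using filterByExpr, TMM factors and a robust quasi-likelihood fit on group alone, with Benjamini-Hochberg adjustment over 10661 genes. The procedure was tested on simulated data. A called gene had an adjusted p under 0.05 and a log2 fold change beyond 0.5 in either direction. SE is the absolute log2 fold change over the square root of F. Correlations used Python 3.11.15 with scipy 1.17.1. Named genes were the 10 members, ZBTB7A, up to 3 passing genes per further list by absolute log2 fold change, and the 2 closest profiles per passing member. Markers, SLC39A14, PMS1, NEMP2, FEV, HIBCH, PCBP1 and the overlapping genes fall outside this rule. Some genes that the rule names are not reported here. Members and lists were chosen with earlier results of these data known.

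Alternatives were limma-voom (limma 3.58.1), DESeq2 1.42.0, other size factors, filters, thresholds, barcode classes, thinning to 563235 UMIs, pseudogene counts added and each library left out. Overlap counts without GGCCAC or CGGTGG, the split of KO libraries at the FTL gap, and neighbours within 1 Mb were added after seeing the data. Protein sequences were not used here.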

Additional observations from a re-analysis of the deposited data

How the results depend on the processing

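Of 418 values of single iron genes under the alternatives, 412 kept their direction and their side of the threshold. Most of the 418 came from the 37 fits that each left out 1 library and so shared nearly all their data. No exception arose in those fits, so all came from the other alternatives. The exceptions were SLC25A37, which turned to -0.14 among AT-rich barcodes, STEAP3, whose adjusted p rose above 0.05 on thinned libraries (0.171 by edgeR), and 4 values whose adjusted p fell below 0.05: FTL in limma-voom (-0.20) and among AT-rich barcodes (-0.32), IREB2 after thinning (-0.19) and FTH1 with pseudogene counts (0.36). The count of called genes, 1085, became 1720 without a filter on low counts, 672 at a mean of at least 10 CPM, 616 after thinning and 368 at an absolute log2 fold change above 1. Under the last 3 settings 1 iron gene was called instead of 2: the scarce SLC11A1 was not tested in the first and second of them, and SLC40A1 missed the fold limit in the last. Leaving out each library gave 1044 to 1126 called genes, always with 2 iron genes. FTH1 was tested in 36 of these 37 fits. No paired analysis was possible because the labels give no replicate numbers. Depth limits SLC11A1, FTH1 and HMOX1 most.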

Other observations

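The genome around the called genes was looked at after their values had been seen. Within 1 Mb of SLC40A1, 11 other genes were tested, with a median log2 fold change of -0.04. PMS1 was lower (-0.38, adjusted p = 0.000297 by edgeR) and NEMP2 higher (0.41, adjusted p = 0.0442). Of the 11 genes in this window, WDR75 and HIBCH followed SLC40A1 most closely over the 26 KO libraries, with r = 0.86 and 0.81. Their own log2 fold changes were -0.18 and -0.08 (adjusted p = 0.0849 and 0.515 by edgeR). The other tested genes of the window had r from 0.04 to 0.73 with SLC40A1, among them PMS1 at 0.66 and NEMP2 at 0.63. Within 1 Mb of SLC11A1, 23 other genes were tested, of which 3 rose and 2 fell, again with a median of -0.04, and FEV rose by 2.12 (adjusted p = 0.00046).

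PCBP1, an iron chaperone that delivers iron to ferritin, was not tested, its counts being 2 to 17 UMIs in KO and 0 to 20 UMIs in control libraries. As in FTH1, all of its last 500 exonic bases overlap exons on the opposite strand, here of PCBP1-AS1.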
